A study of Rattus norvegicus with 38 samples.

Results

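Cortical neurons of SHRSP rats were compared with those of Wistar rats at the early stage of hypertension, 24 to 25 weeks of age, by 3' end RNA sequencing. The comparison takes 10 of the 38 libraries of the series, 5 from SHRSP and 5 from Wistar animals, chosen by their labels for strain, material and stage. The material was clusters of neurons cut from the cortex by laser microdissection. The labels name no treatment, transgene, sex or blood pressure for either strain. Each library carries a number in its title, 374, 377, 380, 383 and 386 in SHRSP and 340, 343, 346, 349 and 368 in Wistar. It was taken as the number of the animal, and vessel libraries carry the same numbers. On that reading replicates are separate animals, and p-values measure the spread between animals, to which cutting and preparing the material also add.

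SHRSP is the stroke-prone substrain of the spontaneously hypertensive rat, a line selected for high blood pressure from Wistar-derived stock. Its animals develop severe hypertension and, later, damage to small brain vessels and strokes, and it is widely used as a model of cerebral small vessel disease. Wistar rats are normotensive and are not the line from which SHRSP was selected, so blood pressure and genetic background cannot be told apart in this comparison. Neurons of the cortex signal through glutamate or GABA and depend on a steady supply of blood. A laser cut around a cluster of cell bodies can also take up nearby processes, glia and capillaries. In such bulk material, fewer cells of a type and less RNA per cell cannot be told apart.

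The count table names genes by Ensembl ID alone (ID below), and 0 of its 32883 IDs could be paired with a gene name in the reference used here. The neuronal label was therefore not checked against marker genes, no gene list could be counted, and what each ID encodes is not stated. No sequence is printed for the same reason.

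Library totals ranged from 1198386 to 3772677 counts in SHRSP and from 2318666 to 3382133 in Wistar neurons. Some libraries stood apart. Wistar 343 held 9501 IDs with a count, against 11987 to 14045 in the other 9 libraries, and its median correlation with them was 0.813, against 0.891 to 0.948 for the others (over the 4381 IDs whose log2 level averaged 5 or more in CPM, counts per 1000000 of the normalised library total). Wistar 349 and SHRSP 383 gave 24.6% and 21.8% of their counts to the most abundant ID, ENSRNOG00000043866, against 4.34% to 10.7% in the other 8. On the first principal component, which held 36.6% of the variance, Wistar 343 lay at -48.2 and the other 9 libraries between 0.857 and 9.82. On the second (18.0%), 4 SHRSP libraries lay between 9.15 and 14.0 and 4 Wistar libraries between -5.32 and 0.564, while Wistar 349 and SHRSP 383 lay below all of these at -20.1 and -16.4. The differences between the strains in totals, in IDs with a count and in the share of the most abundant ID were within the spread of the animals (exact permutation tests, two-sided, p = 0.786, 0.413 and 0.524, adjusted p = 0.786 over the 3 tests). Results below are given with and without these libraries where they moved.

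**Figure D1:**
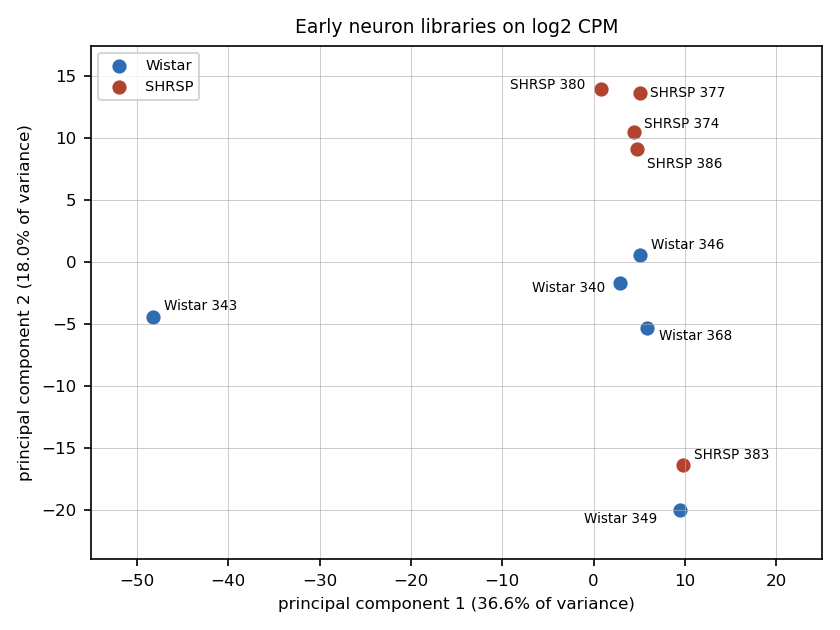
Early neuron libraries on the first 2 principal components of log2 CPM, 1 point per animal, coloured by strain. Wistar 343 lies alone on component 1 at -48.2, and Wistar 349 and SHRSP 383 lie together at the lower end of component 2.

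The strains differed in 5 of 9789 IDs tested, 3 of them higher and 2 lower in SHRSP (edgeR quasi-likelihood test fitted to these 10 libraries, Benjamini-Hochberg adjusted p under 0.05). These calls are 0.0511% of the IDs tested, 0.0306% higher and 0.0204% lower. All 5 separated the strains completely, with each SHRSP library on one side of every Wistar library, as did 171 of the 9789 IDs (1.75%). The 5 were picked in these same libraries, so their separation is no further support. Their folds ranged from 3.50 to 40.3. They were not among the most abundant IDs, ranking from 1068 to 5875 by mean level among the 9789. The rule for printing IDs takes 2 in each direction, and the remaining higher one, ENSRNOG00000038999, is named because so few passed. That choice was made after its values were seen.

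The ID with the smallest p was ENSRNOG00000017895, which was nearly undetected in SHRSP neurons. In CPM it stood at 0, 2.19, 0.336, 1.21 and 1.45 in SHRSP 374, 377, 380, 383 and 386, from 16 counts over the 5 libraries. In Wistar 340, 343, 346, 349 and 368 it stood at 50.6, 16.4, 73.4, 41.7 and 58.8 CPM, from 684 counts. The lowest Wistar value, in the library that stood apart by its number of IDs, was still several times the highest SHRSP value. The mean was 1.04 ± 0.879 CPM in SHRSP and 48.2 ± 21.3 in Wistar (SD, n = 5 each), a log2 fold of -5.33 (SE 0.54, edgeR adjusted p = 0.000505).

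ENSRNOG00000005826 had the opposite pattern. It measured 55.2, 29.1, 38.3, 36.1 and 25.3 CPM in SHRSP 374, 377, 380, 383 and 386. In Wistar 340, 343, 346, 349 and 368 it measured 4.98, 0.364, 0.901, 2.14 and 3.52 CPM, with 1 count in Wistar 343 and 2 in Wistar 346. The highest level was in SHRSP 374, the library with the smallest total, and no library of one strain came near the other strain. The mean was 36.8 ± 11.5 CPM in SHRSP and 2.38 ± 1.90 in Wistar (SD, n = 5 each), 14.7-fold higher in SHRSP (log2 fold 3.88, SE 0.50, edgeR adjusted p = 0.00578).

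The other 3 calls were of more moderate size and lay close to the threshold, all with an edgeR adjusted p of 0.0427. ENSRNOG00000030339, the most abundant of the 5, measured 286, 157, 297, 177 and 392 CPM in SHRSP 374, 377, 380, 383 and 386. It measured 66.2, 67.4, 104, 47.0 and 23.9 CPM in Wistar 340, 343, 346, 349 and 368. Both strains spread widely, SHRSP from 157 to 392 and Wistar from 23.9 to 104 CPM, but without overlap. The mean was 262 ± 96.5 CPM in SHRSP and 61.7 ± 29.5 in Wistar, 4.26-fold higher in SHRSP (log2 fold 2.09, SE 0.34).

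ENSRNOG00000038999 measured 101, 137, 129, 64.6 and 98.8 CPM in SHRSP 374, 377, 380, 383 and 386. In Wistar 340, 343, 346, 349 and 368 it measured 23.9, 49.5, 31.5, 31.3 and 13.8 CPM. The strains came closest between SHRSP 383 and Wistar 343, both libraries that stood apart. The mean was 106 ± 28.6 CPM against 30.02 ± 13.1, 3.54-fold higher in SHRSP (log2 fold 1.83, SE 0.30).

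ENSRNOG00000023086 was low and even in SHRSP, at 11.2, 13.1, 10.8, 9.71 and 8.32 CPM in animals 374, 377, 380, 383 and 386. In Wistar 340, 343, 346, 349 and 368 it measured 47.4, 45.5, 37.4, 19.9 and 35.8 CPM. Wistar 349, with its high share of the most abundant ID, was the lowest Wistar library and the one nearest to SHRSP. The mean was 10.6 ± 1.79 CPM in SHRSP and 37.2 ± 10.9 in Wistar, 3.50-fold lower in SHRSP (log2 fold -1.81, SE 0.30).

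**Figure D2:**
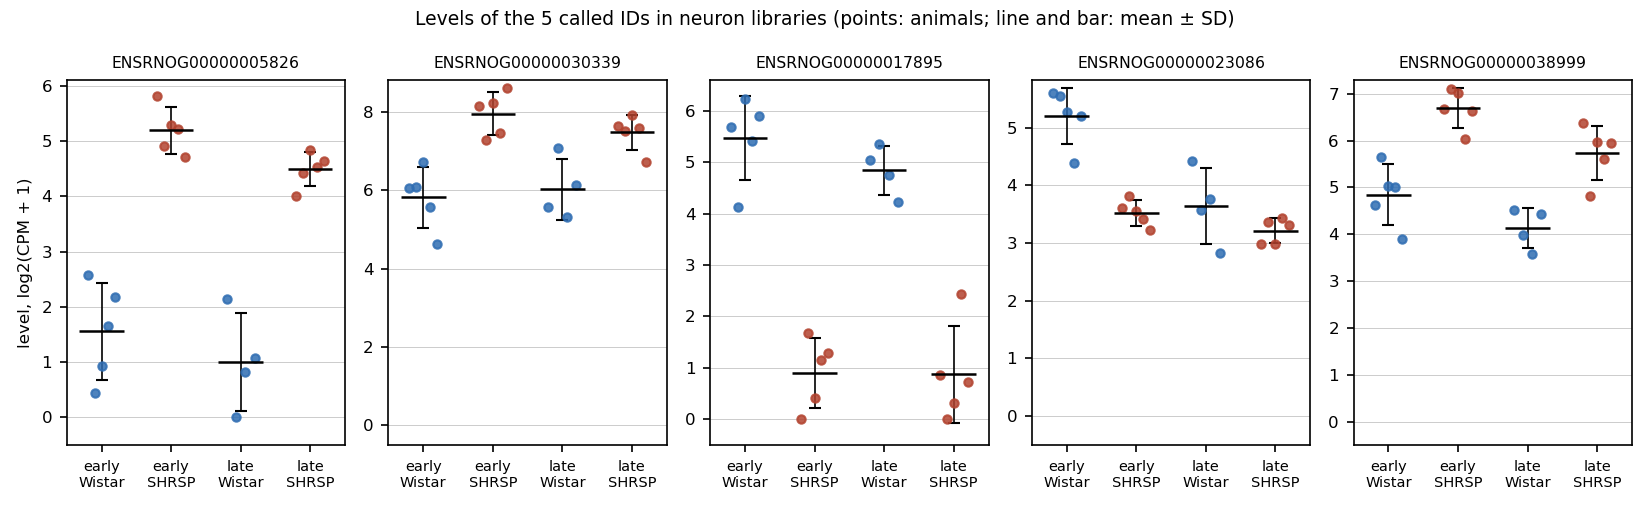
Levels of the 5 called IDs in neuron libraries as log2(CPM + 1), 1 point per animal, with the mean and SD of each group. In the early groups, on which the 5 were picked, the strains do not overlap for any of them, nor for 1.75% of all IDs tested. In the late groups they overlap for ENSRNOG00000023086 and ENSRNOG00000030339. Early and late levels were scaled separately.

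The folds of all 5 kept their direction under the 21 alternatives tried, which changed the libraries, the scaling, the filter or the tool, while their adjusted p moved. ENSRNOG00000017895 had a log2 fold of -5.74 to -5.09 and lost its call in limma voom (adjusted p = 0.322, over the alternatives 5.91e-18 to 0.322). ENSRNOG00000005826 had 3.47 to 4.30 and lost its call in limma voom (adjusted p = 0.245) and in the 8 animals with a low share of the most abundant ID (0.0625), over the alternatives 9.77e-13 to 0.245. ENSRNOG00000030339 had 1.88 to 2.36 and lost its call in 11 of the 21 (adjusted p 1.89e-06 to 0.311), among them those without Wistar 340, 343, 349 or 368 and without SHRSP 374, 380 or 386. ENSRNOG00000038999 had 1.64 to 2.37 and lost it in 11 (1.76e-05 to 0.220), among them those without Wistar 340, 346, 349 or 368 and without SHRSP 374, 377, 380 or 386. It also lost its call with a term in the fit that sets Wistar 349 and SHRSP 383 apart from the other 8 libraries (adjusted p = 0.0526), with which the other 4 IDs kept theirs (0.00134 to 0.0463). ENSRNOG00000023086 had -1.96 to -1.70 and lost it in 10 (1.78e-05 to 0.245), among them those without Wistar 340, 346 or 368 and without any 1 of the SHRSP animals. Among the 8 low-share animals alone the log2 folds were -5.39, 3.85, 2.13, 1.98 and -1.92 for ENSRNOG00000017895, ENSRNOG00000005826, ENSRNOG00000030339, ENSRNOG00000038999 and ENSRNOG00000023086. The high-share animals are 1 per strain and give no test of their own.

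**Figure D3:**
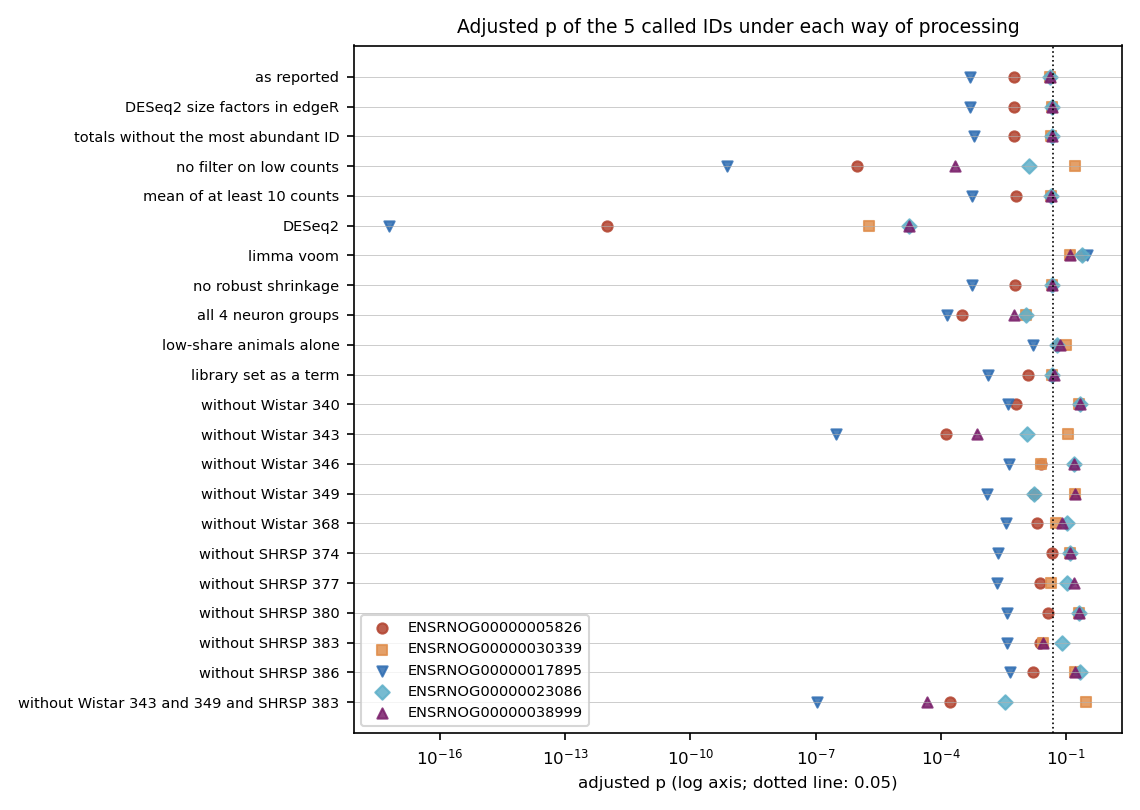
Adjusted p of the 5 called IDs (log axis, dotted line at 0.05) as reported and under each of the 21 alternatives, 1 symbol per ID. ENSRNOG00000017895 and ENSRNOG00000005826 lie left of the line in all but 1 and 2 alternatives. The other 3 lie right of it in 10 or 11.

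How many IDs passed depended strongly on which animals entered and on the tool. Without Wistar 343 the count was 17, 7 higher and 10 lower in SHRSP, with 4 of the 5 among them. The biological coefficient of variation, the typical spread between animals that edgeR estimates, was then 0.297, against 0.398 with all 10 libraries. Without Wistar 343, Wistar 349 and SHRSP 383, an alternative chosen after the data were seen, 37 IDs passed, 16 higher and 21 lower, again with 4 of the 5 among them, and the coefficient was 0.270. The number of calls was 9 without SHRSP 383 (7 higher and 2 lower), 3 without Wistar 346 or 349, and 2 without Wistar 340, Wistar 368, SHRSP 374, SHRSP 380 or SHRSP 386. In the 8 low-share animals 1 passed, ENSRNOG00000017895. DESeq2 gave 46 calls, 25 higher and 21 lower and including all 5. Limma voom gave 0, with 649 IDs at an unadjusted p under 0.05, against 622 in edgeR.

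Most IDs showed no strain difference that these libraries could resolve. The median log2 fold over all 9789 IDs was -0.01, its quartiles were -0.25 and 0.23, and the median absolute value was 0.24. A difference of at least 2-fold was fitted for 379 IDs (3.87%), 182 higher and 197 lower in SHRSP. When the IDs were split by mean level into 3 classes of 3263 each, 290 of these lay in the low class, up to 15.7 CPM, 67 in the middle class and 22 in the high class, from 50.7 CPM upwards. The median SE of a log2 fold was 0.64 in the low, 0.32 in the middle and 0.21 in the high class. For 4925 IDs (50.3%) the 95% interval of the fold excluded a 2-fold difference in either direction. That held for 90.4% of the high class, 55.4% of the middle class and 5.12% of the low class, so for most IDs of the low class a 2-fold difference was not excluded. Of the 5 calls, 2 lay in the high class, 3 in the middle and 0 in the low class.

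An unadjusted p under 0.05 was reached by 622 IDs (6.35%), 288 higher (2.94%) and 334 lower (3.41%) in SHRSP, where 489 would be reached on average if no ID differed. Of the 649 IDs at such a p in limma voom, 395 were higher and 254 lower. Counted without the test, 171 IDs (1.75%) had all SHRSP libraries on one side of all Wistar libraries, 104 above (1.06%) and 67 below (0.684%). Their absolute log2 folds had a median of 0.78 and reached from 0.19 to 5.33, being 1 or more for 63. The 2 IDs next to the threshold had adjusted p-values of 0.0635 and 0.0845 and log2 folds of 1.58 and 1.70, both higher in SHRSP. An ID with counts in all 5 libraries of a strain and none in the other occurred once in each direction, under the filter on low counts and so not tested. The Wistar one had 39 counts. With 3 counts put in for the SHRSP group, which had 0, it would be 12.3-fold lower in SHRSP, a bound and not a measured fold. In late neurons it had 9 counts in 1 of 4 Wistar libraries and 0 in SHRSP, and in early vessels 0 counts in either strain. The SHRSP one had 9 counts. With 3 counts put in for the Wistar group, which had 0, it would be 3.17-fold higher in SHRSP, again a bound. In late neurons it had 8 counts in 3 of 5 SHRSP libraries and 0 in Wistar, but in early vessels 29 counts in Wistar and 14 in SHRSP. Both bounds take the observed counts as exact and allow for counting error only in the strain without counts.

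**Figure D4:**
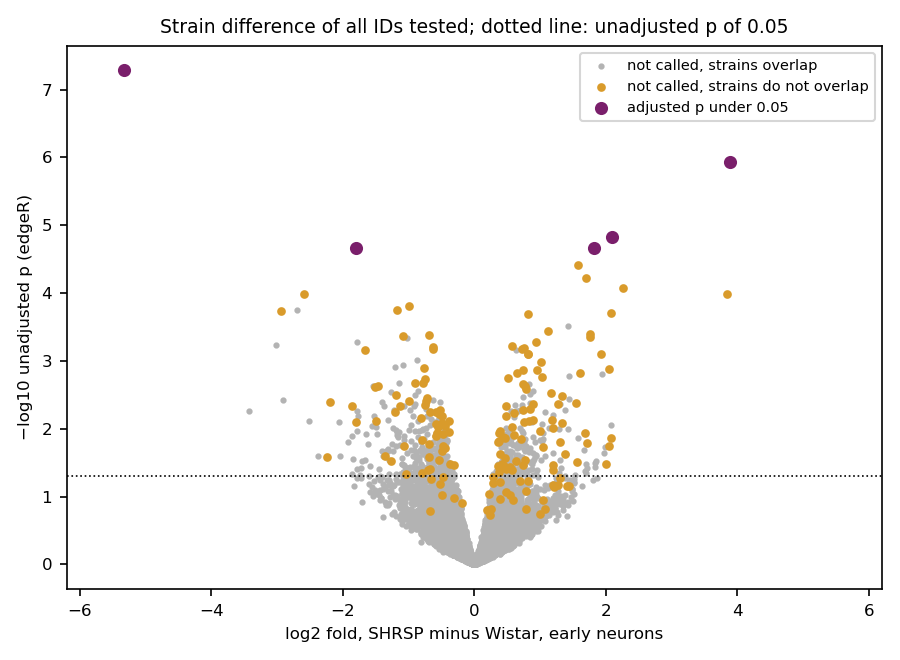
Log2 fold (SHRSP minus Wistar) against −log10 unadjusted p for the 9789 IDs tested in early neurons. The 5 called IDs are purple, and the IDs in orange separate the strains without being called. The dotted line marks an unadjusted p of 0.05.

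The late neuron libraries, from 5 SHRSP and 4 Wistar animals of 32 to 34 weeks, share no animal with the early ones. Fitted by themselves, 3 of the 5 early calls passed there in the same direction, where 0.167% of 10154 IDs passed. ENSRNOG00000017895 had a mean of 1.24 ± 1.82 CPM in late SHRSP (n = 5) and 28.8 ± 9.29 in late Wistar neurons (n = 4), without overlap (log2 fold -4.47, SE 0.56, edgeR adjusted p = 0.000965). ENSRNOG00000005826 had 21.8 ± 4.55 and 1.32 ± 1.47 CPM, again without overlap (log2 fold 4.10, SE 0.50, edgeR adjusted p = 0.000754).

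ENSRNOG00000038999 had 55.6 ± 20.0 CPM in late SHRSP and 17.1 ± 5.11 in late Wistar neurons, without overlap (log2 fold 1.70, SE 0.29, edgeR adjusted p = 0.0191). That late call was lost in 5 of 10 alternatives (adjusted p 0.00170 to 0.0926), in limma voom and without Wistar 353, Wistar 354, SHRSP 378 or SHRSP 384. ENSRNOG00000030339 had 184 ± 49.3 and 72.5 ± 43.7 CPM, the highest Wistar library (135 CPM) lying above the lowest SHRSP one (105 CPM), and did not pass (log2 fold 1.33, SE 0.32, edgeR adjusted p = 0.203). Without Wistar 351, which held that highest level, it passed (log2 fold 1.83, edgeR adjusted p = 0.00198, over the alternatives 0.00198 to 0.537). ENSRNOG00000023086 had 8.35 ± 1.38 and 12.5 ± 6.001 CPM and did not pass either (log2 fold -0.57, SE 0.33, edgeR adjusted p = 0.956). The late Wistar libraries lay between 6.09 and 20.5 CPM, against 19.9 to 47.4 CPM in the early ones. Early and late levels were scaled separately, so they are not on one scale. The late neuron libraries gave 20.4% to 35.5% of their counts to the most abundant early ID. Wistar 349, the lowest early Wistar library for ENSRNOG00000023086, gave 24.6%. In late Wistar 350, 351, 353 and 354 the shares were 35.5%, 24.3%, 35.0% and 35.3%. The levels of ENSRNOG00000023086 in the same order were 20.5, 10.8, 12.5 and 6.09 CPM. Early SHRSP 383, with a share of 21.8%, stood at 9.71 CPM, within the range of the other early SHRSP libraries. The part of that share in this result was not tested.

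Whether the strain difference itself changed from early to late was tested in 1 fit of the 19 neuron libraries. None of 10833 IDs passed in either tool (0 calls, 0.00%). The unadjusted p was under 0.05 for 253 IDs by edgeR and for 322 by limma voom, where 542 would be reached on average if no ID changed. With fewer small p-values than that, 0 calls do not show that the strain difference stayed the same. For ENSRNOG00000023086 the early minus late difference was -1.21 (log2, SE 0.46, unadjusted p = 0.0142, edgeR adjusted p = 0.99994). For ENSRNOG00000030339 it was 0.77 (SE 0.50), for ENSRNOG00000038999 0.15 (SE 0.44), for ENSRNOG00000005826 -0.20 (SE 0.74) and for ENSRNOG00000017895 -0.83 (SE 0.91). None of the 5 passed the test of this change.

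Early differences tended to have the same direction in the late animals, also with the 5 calls left out. Of the 622 IDs at an early unadjusted p under 0.05, 608 were tested late, and 470 of them (77.3%) had the same sign, against 57.8% of the 9465 IDs tested at both stages. Without the 5 calls, 465 of 603 (77.1%) had the same sign, and 117 (19.4%) also a late unadjusted p under 0.05. An unadjusted p under 0.05 with the same sign was reached late by 121 of the 608 (19.9%), against 4.44% of all, and with the opposite sign by 1 (0.164%), against 1.49% of all. In the late fit as a whole, 6.02% of IDs had such a p. The sign was the same for 227 of 284 IDs higher and 243 of 324 IDs lower in early SHRSP. The late differences were smaller, with a median of 0.21 (log2) in the early direction against an early median of 0.72, the early values being those the IDs were picked on. Of the 171 IDs that separated the early strains, 166 were tested late. There 133 had the same sign, 23 separated the late strains the same way and 0 the other way, where 2.68% of all late IDs separated the strains in either direction.

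**Figure D5:**
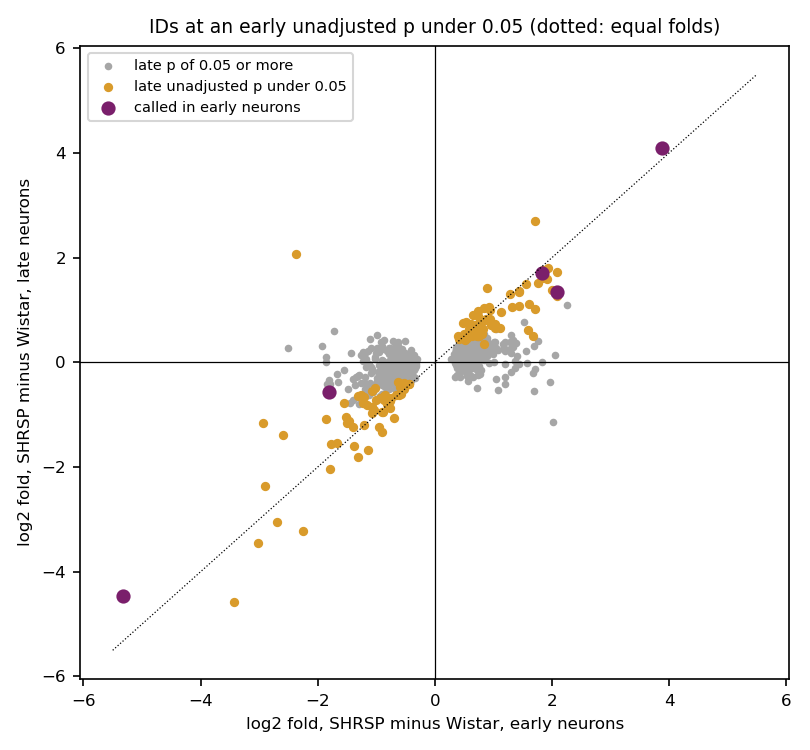
Log2 fold (SHRSP minus Wistar) in early against late neurons for the 608 IDs at an early unadjusted p under 0.05 that were tested at both stages. Orange marks a late unadjusted p under 0.05, purple the 5 early calls, and the dotted line equal folds. Of the 608 IDs, 470 lie in the lower left or upper right part, with the same sign at both stages.

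Calls found under other settings also had mostly the same sign in the late animals. Of the 46 IDs called by DESeq2 in early neurons, 45 were tested late, 43 of which had the same sign and 26 an unadjusted p under 0.05 with it. Of the 37 called without Wistar 343, Wistar 349 and SHRSP 383, 36 were tested late, 35 had the same sign and 22 such a p. Of the 17 called without Wistar 343, 16 were tested late, 16 had the same sign and 10 such a p. Median absolute early log2 folds in these sets were 1.32, 1.57 and 2.03. The sign was also the same for 11 of 12 IDs called without a filter on low counts and 8 of 9 called without SHRSP 383. Of all IDs tested at both stages, 57.8% had the same sign and 4.44% such a p with it. The sets share IDs with each other and with the 5 calls, so they are no separate support.

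In the early vessel libraries, which carry the same animal numbers, the 5 IDs were measured less evenly. ENSRNOG00000017895 had no count in any of the 5 SHRSP vessel libraries, and 0 to 58.0 CPM in Wistar vessels, with 1 of 5 at 0. ENSRNOG00000005826 had 0 to 263 CPM in SHRSP vessels, with 2 of 5 at 0, and was at 0 in 4 of 5 Wistar vessel libraries, the other at 4.52 CPM. ENSRNOG00000038999 had 570 to 2469 CPM in SHRSP and 4.25 to 285 in Wistar vessels, without overlap, and passed there too (log2 fold 3.76, SE 0.60, edgeR adjusted p = 1.91e-05, where 0.242% of 5795 IDs passed). ENSRNOG00000030339 had 1.96 to 313 CPM in SHRSP and 0.387 to 80.4 in Wistar vessels, and ENSRNOG00000023086 0 to 0.327 and 0 to 49.8 CPM. Levels in neurons and vessels were scaled separately.

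The strain difference in neurons minus that in vessels, with the animal as a block, passed for 3 of 10281 IDs (0.0292%), and none of the 5 was among them. The count was 0 with no replicate block (1053 at an unadjusted p under 0.05, against 417 with it) and without Wistar 340 (267). It was 5 without SHRSP 377, and 1 in limma voom or without SHRSP 380, 383 or 386. For ENSRNOG00000038999 the neuron minus vessel value was -2.94 (log2, SE 0.95, unadjusted p = 0.00191, edgeR adjusted p = 1) and did not pass. By the sign of this value the fitted strain difference was larger in vessels. For ENSRNOG00000017895, ENSRNOG00000005826, ENSRNOG00000030339 and ENSRNOG00000023086 it was 2.59 (SE 2.13), -2.48 (SE 3.10), 0.87 (SE 1.91) and 3.61 (SE 3.62). With errors of that size, differences of several fold between the materials could not be resolved.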

How the data were processed

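Laser-cut pieces of rat cortex were extracted with PicoPure and sequenced from transcript 3' ends with QuantSeq FWD, per the labels' protocols. Whole-number counts of 32883 IDs in 38 libraries, unnormalised, stand in 1 table that the authors deposited. HTSeq 0.6.1, STAR 2.5.3a, DESeq2 1.18.1 and FastQC 0.11.5 appear in the submitters' processing notes, without their roles. The sources used here give no genome build, annotation or strand setting, so overlapping, antisense or near-identical genes cannot be separated. A count reads a transcript's 3' end and does not grow with its length. No row lacked an ID, and 0 columns lacked a sample.

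The 10 early neuron libraries were fitted by edgeR 4.0.16 (R 4.3.3) with strain as the only term, after filterByExpr (default minimum of 10 counts), with TMM scaling and the robust quasi-likelihood F test. All tests were two-sided, and a call is a Benjamini-Hochberg adjusted p under 0.05 over all IDs tested. An SE is the absolute log2 fold divided by the square root of F. The late neurons were fitted in the same way, the change with stage over 19 libraries, and neurons against vessels over the 20 early libraries with the animal as a block. Neuron and vessel libraries with the same number in their titles were taken to come from the same animal. Once group means were removed, the correlation within the 10 pairs lay between -0.00747 and 0.333 (median 0.0519, against -0.00494 for other numbers). It was over 0.1 in 2 of the 10 pairs, so this check of the pairing was weak. Libraries within a strain (20 pairs) differed by chi-square values per degree of freedom of at least 4.88, so none looked like a repeat deposit of another. Alternatives were DESeq2 1.42.0, limma 3.58.1 voom, other scalings and filters, other sets of libraries and each animal left out. The fits were tested on simulated data in which every ID of a fit had the same spread between animals. No simulated library stood apart, so that test does not cover the libraries that did so here. The labels name no molecular identifiers, so bounds made from counts hold for counting error alone.

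The comparison, the gene lists and the tests were chosen with earlier results of these data known. Without gene names, neither the gene lists nor the marker check could be run, and the rule for a table without names was followed, by which at most 2 called IDs are printed in each direction. The fifth call was added because so few passed.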

Additional observations from a re-analysis of the deposited data

Results flagged for a closer look

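In a group of 5, a library was marked where its gap to the nearest other library took up more of the group's range than Dixon's test allows at the 95% level. Of 26 groups of values examined, 4 had such a library, where chance marks about 1 in 20 groups. Wistar 343 had 9501 IDs with a count, the lowest of the early Wistar neurons. SHRSP 374 had 11987, the lowest of the early SHRSP neurons, and also the smallest total, 1198386 counts. SHRSP 383 gave 21.8% of its counts to the most abundant ID, ENSRNOG00000043866, the highest of the early SHRSP neurons. In the late SHRSP neurons, SHRSP 382 had the highest level of ENSRNOG00000017895, 4.44 CPM from 15 counts, still below the lowest late Wistar library at 17.7 CPM.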

How the results depend on the processing

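The count of 5 called IDs became 12 without a filter on low counts, 46 in DESeq2, 24 with all 4 neuron groups in the fit, 1 in the low-share animals, 0 in limma voom (649 at an unadjusted p under 0.05) and 37 without Wistar 343, Wistar 349 and SHRSP 383. It ranged from 2 to 17 when each animal was left out. Other scalings, a filter on the mean count and no robust shrinkage gave 5, the IDs as reported. A term for Wistar 349 and SHRSP 383 also gave 5, 2 higher and 3 lower, but shared 4 with those reported, ENSRNOG00000038999 losing its call (adjusted p = 0.0526). The cause of these changes was not tested. The count of 622 IDs at an unadjusted p under 0.05 became 1247 without a filter (17264 IDs tested), 952 with all 4 groups, 958 without the 3 libraries, and 396 to 815 with an animal left out. The 77.3% of IDs with the same sign in late neurons became 73.0% in the low-share animals and 73.0% without the 3 libraries, and lay between 72.1% and 82.3% with an animal left out. The 3 calls for neurons minus vessels became 0 with no replicate block (1053 at an unadjusted p under 0.05), 1 in limma voom, and 0 to 5 with an animal left out. In that comparison ENSRNOG00000017895 changed sign in limma voom, to a log2 value of -0.171783 (adjusted p = 0.997). The replicate block changed no call of the 5 IDs. Without Wistar 346 or 349 the early calls numbered 3, and the other scalings moved the median log2 fold of all IDs by -0.0031 and 0.013. Errors were largest for weakly expressed IDs, and the part of depth in this was not tested.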
